A study of Homo sapiens with 12 samples.

Results

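The 10 genes described here on expression arrays were predicted as targets of miR-371-3p in the drug tolerance study of PC9 cells, where other targets were studied in depth: WDR19, GDE1, TOMM20, MIGA2, PIGK, COLGALT1, SLC37A2, GABBR2, ZNF213 and ZNF576. They are the members of the study's target sheet given by these names, with COLGALT1 and MIGA2 listed there as GLT25D1 and FAM73B. Every probe set that the array annotation assigns to one of these symbols alone was taken, which gave 21 probe sets of 10 genes among 41091 probe sets of 19775 genes tested. The sheet carries a colour key that includes significance on arrays, so the members are not independent of these measurements, and counts of members are no independent evidence of a direction. PIGK stands there among the targets left out of a screen with siRNAs and the others among those screened. The study also assayed predicted targets with reporters of their 3′ untranslated regions. Its methods say that the genes for the siRNA screen were hits of that assay. The reporter result of each member was not analysed here. The members were not chosen here by their values.

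PC9 is a lung adenocarcinoma line whose growth depends on mutant EGFR. The 4 groups of 3 arrays each were pre-miR-371 cells in 2 μM erlotinib, GFP vector cells in 2 μM erlotinib, pre-miR-371 cells in DMSO and GFP vector cells in DMSO, all treated for 24 h. Both lines were made by stable lentiviral infection, with an expression construct for the miR-371 precursor in one and a GFP vector in the other. The control that the study's methods list with the precursor constructs is a scramble hairpin in a copGFP vector. There was 1 line of each kind and it is not given whether it was a clone or a pool, so the precursor and other differences between the lines cannot be told apart. The study's methods call its replicates biological in general, but no label names a separate culture for each of the 3 arrays in a group, so the p-values measure only the spread between these arrays, part of which may be technical. In such bulk RNA, a lower level in all cells and a loss from some of them cannot be told apart.

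A microRNA is cut from a hairpin precursor and guides a silencing complex to messenger RNAs, mostly by pairing of its seed with sites in the 3′ untranslated region. Pairing lowers translation and often the level of the messenger, usually by a modest amount. The miR-371 hairpin lies in a cluster that is known for its activity in embryonic stem cells. Erlotinib blocks the EGFR kinase, and in EGFR-mutant cells this shuts down MAPK signalling and proliferation.

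The precursor gives 2 arms, and their sequences are shown because target prediction rests mainly on the seed. Capitals mark the seed, bases 2 to 8 from the 5′ end. The RNA sequences are those of RefSeq on GRCh38.p14, where both arms lie on the plus strand of chromosome 19 within MIR371A.
hsa-miR-371a-3p: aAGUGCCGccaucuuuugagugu
hsa-miR-371a-5p: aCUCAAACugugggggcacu
The 3p arm, the miR-371-3p of the study, spans chr19:53787716-53787738 and the 5p arm chr19:53787680-53787699. The seeds of the arms pair with CGGCACU and GUUUGAG in a messenger, read 5′ to 3′. None of the other mature microRNAs among the 2370 in the RefSeq table shares either seed (0 for each arm). Sites in the members' messengers were not analysed here, and the arrays did not measure the microRNA.

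The values are log2 expression, so that a difference of 1 is a 2-fold change. MAPK target genes were lower with the drug in both lines: DUSP6, a phosphatase that is switched on by MAPK signalling, averaged 3.58 ± 0.43 and 3.35 ± 0.26 in erlotinib in pre-miR-371 and GFP vector cells, against 9.58 ± 0.12 and 9.26 ± 0.14 in DMSO (SD, n = 3). SPRY4 and ETV5, also MAPK targets, were lower too, and all 3 genes of this check passed the test in both lines. All 6 epithelial markers were high (EPCAM 12.43 to 12.99 over the 12 arrays), while 1 of 6 fibroblast markers (COL1A1, 6.61 to 7.15) and 0 of the 5 leukocyte markers measured had a mean of at least 6. The medians of the arrays lay between 4.31 and 4.41. Of the probe sets tested, 62.2% had a mean under 6, and so did 6 of the 21 probe sets of the members (2 each of WDR19 and GABBR2, 1 of PIGK and the only one of SLC37A2).

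In erlotinib, 11 of the 21 probe sets, from 7 of the 10 genes, were lower in pre-miR-371 cells than in GFP vector cells at an adjusted p under 0.05 from limma, and 0 were higher. Over all probe sets tested, 6.23% were lower and 4.32% higher. The genes were ZNF213, SLC37A2, GDE1, GABBR2, PIGK, TOMM20 and WDR19. ZNF213 and SLC37A2 also passed a fold of 1.5 (2 probe sets, against 0.518% of all). The log2 fold change was below 0 for 20 of the 21 probe sets, with a median of -0.29, against 53.5% of all probe sets and a median of -0.02. For 13 of the 21 the pre-miR-371 arrays all lay below the GFP vector arrays, and for 0 above, against 18.5% and 13.1% of all probe sets.

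In DMSO fewer members passed. Lower in pre-miR-371 cells were 3 of the 21 probe sets, 1 each of ZNF213, GABBR2 and PIGK, and 0 were higher, against 2.66% lower and 0.745% higher over all. None of these 3 passed a fold of 1.5 (0 members, against 0.321% of all). At an unadjusted p under 0.05 there were 8 lower and 0 higher. The share of all probe sets at that limit was not computed, so these counts are not read as a result about the members. The median of the 21 was -0.15, against -0.01 over all, and 17 were below 0, against 52.7% of all. The pre-miR-371 arrays lay wholly below the GFP vector arrays for 11 of the 21 and wholly above for 0, against 17.1% and 9.01% of all.

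Low probe sets weigh on these shares. Among the 15512 probe sets with a mean of at least 6, 23.0% were lower and 14.1% higher in pre-miR-371 cells in erlotinib, and 18.2% were lower and 3.87% higher in DMSO. Of the 15 probe sets of the members in that set, 9 were lower in erlotinib and 4 in DMSO, and 0 were higher in either. The share of members lower in DMSO was then close to that of other well measured probe sets.

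**Figure D1:**
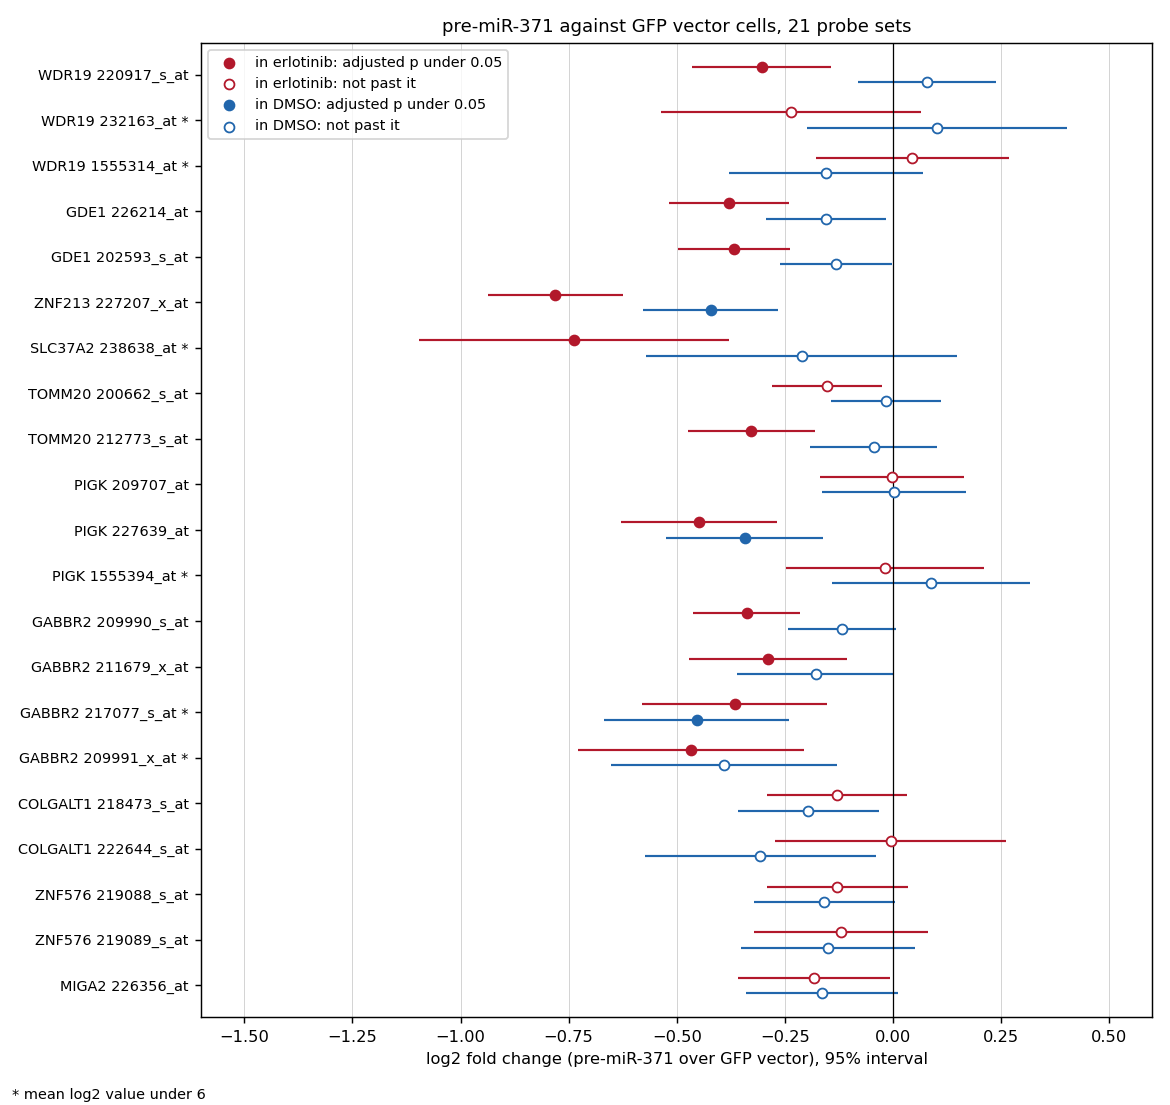
Log2 fold change of pre-miR-371 over GFP vector cells (x axis) for the 21 probe sets (y axis), in erlotinib (red) and in DMSO (blue). Points are limma estimates with 95% intervals from 3 against 3 arrays, filled where the adjusted p was under 0.05, and an asterisk marks a mean log2 value under 6. Most points in erlotinib lie left of 0, with ZNF213 (-0.78) and SLC37A2 (-0.74) farthest out, and in DMSO 3 points are filled.

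As over all probe sets, more of the members passed between treatments than between lines, in comparisons that share arrays with those above. Against DMSO, 3 probe sets were higher and 9 lower with erlotinib in pre-miR-371 cells, and 7 were higher and 8 lower in GFP vector cells. Of all probe sets, 20.4% were higher and 19.6% lower in pre-miR-371 cells and 21.6% were higher and 22.2% lower in GFP vector cells. With a fold over 1.5 as well, 2 were higher and 3 lower in pre-miR-371 cells (10.4% and 8.49% of all) and 4 were higher and 2 lower in GFP vector cells (11.5% and 11.3%). Arrays of the treatments did not overlap for 4 higher and 9 lower in pre-miR-371 cells (24.2% and 26.3% of all) and for 7 higher and 8 lower in GFP vector cells (24.3% and 25.1%). Among probe sets with a mean of at least 6, 3 of the 15 members were higher and 7 lower in pre-miR-371 cells (38.0% and 40.4% of all such) and 6 higher and 7 lower in GFP vector cells (37.6% and 43.5%). In both lines, 1 of the 3 probe sets of WDR19 and both of GDE1 were higher, and both of COLGALT1, all 4 of GABBR2, 1 of the 2 of ZNF576 and 1 of the 3 of PIGK were lower.

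**Figure D2:**
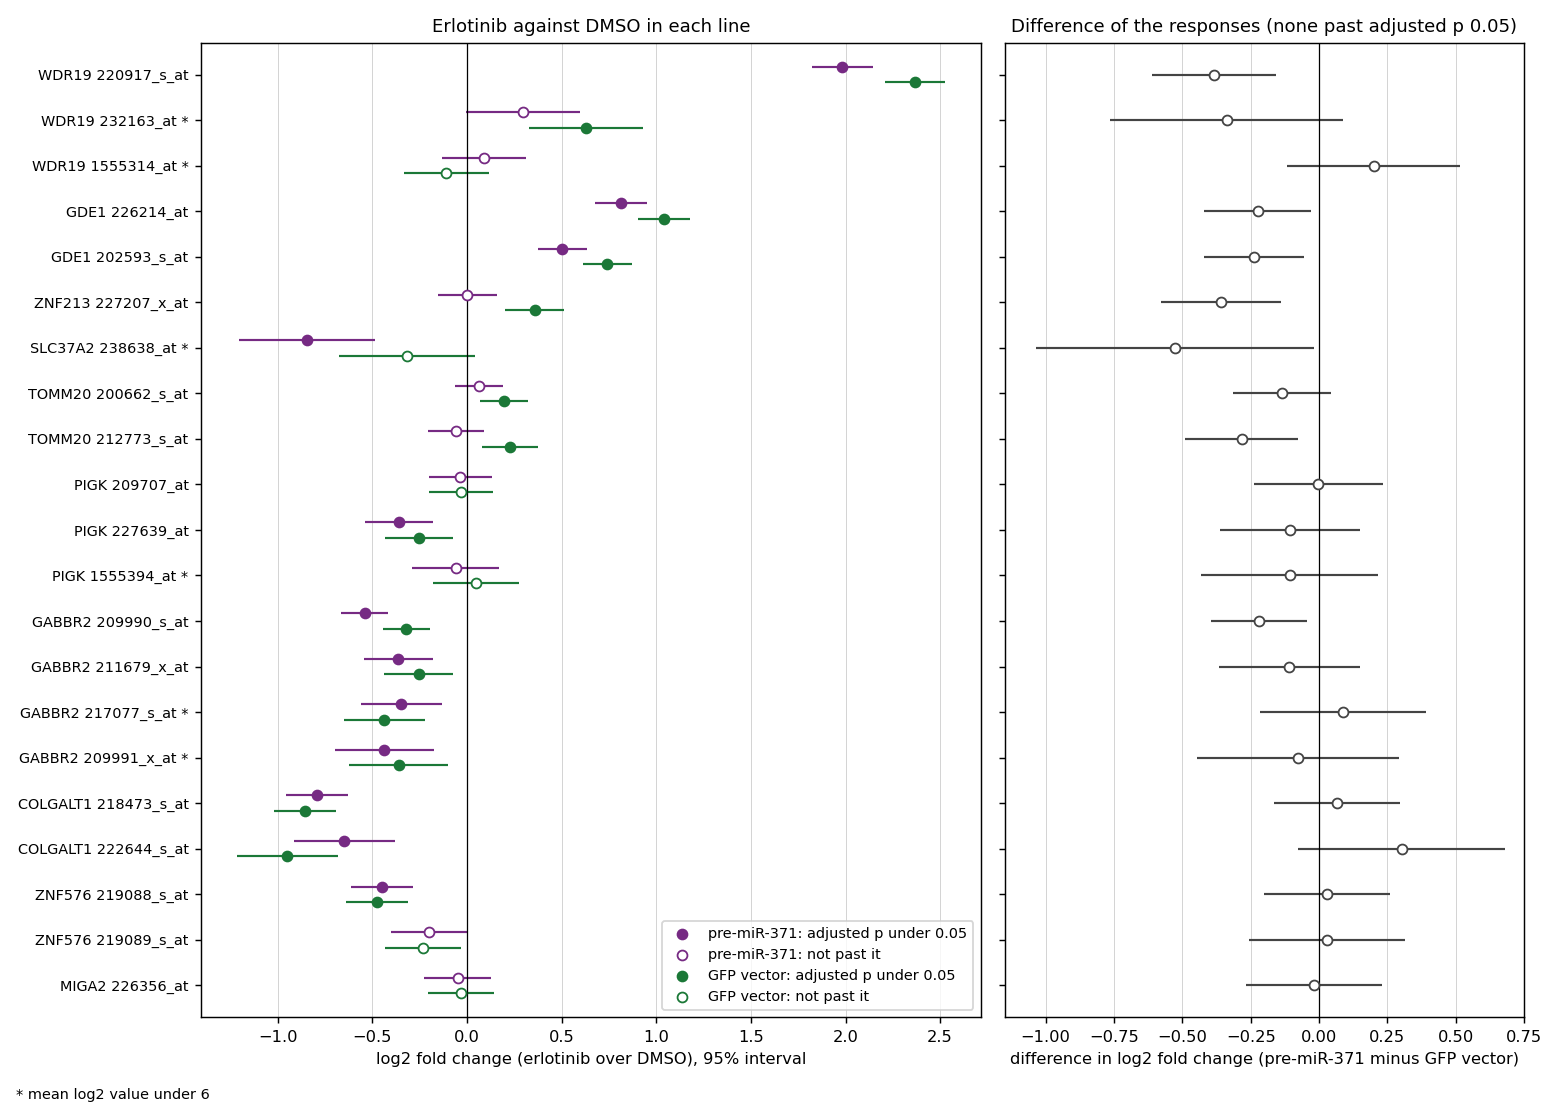
Left, log2 fold change of erlotinib over DMSO (x axis) for the 21 probe sets (y axis) in pre-miR-371 cells (purple) and GFP vector cells (green); right, the difference of these responses, pre-miR-371 minus GFP vector. Points are limma estimates with 95% intervals, filled where the adjusted p was under 0.05, and an asterisk marks a mean log2 value under 6. WDR19 220917_s_at stands out at 1.98 and 2.37, and no difference on the right is filled.

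WDR19, also known as IFT144, is a subunit of the intraflagellar transport A complex, which carries cargo back along the cilium. Its probe set 220917_s_at had 8.74, 8.77 and 8.74 in pre-miR-371 cells in erlotinib and 9.09, 9.03 and 9.05 in GFP vector cells in erlotinib, against 6.86, 6.80 and 6.63 in pre-miR-371 cells in DMSO and 6.77, 6.60 and 6.69 in GFP vector cells in DMSO. All 6 arrays in erlotinib lay far above the 6 in DMSO. The rise with erlotinib was 3.96-fold in pre-miR-371 cells (log2 fold change 1.98, standard error 0.07, adjusted p = 3.83e-10) and 5.16-fold in GFP vector cells (2.37 with the same error, adjusted p = 5.83e-11). It was the largest change of any member in either comparison. Between the lines, the arrays overlapped in DMSO (log2 fold change 0.08, adjusted p = 0.584) and did not overlap in erlotinib, where pre-miR-371 cells were lower (-0.30, standard error 0.07, adjusted p = 0.0221). Without any 1 of the 6 erlotinib arrays, that last call was lost (adjusted p 0.0525 to 0.0716).

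The other probe sets of WDR19 were dim. With erlotinib, 232163_at averaged 3.76 ± 0.03 in pre-miR-371 cells and 3.995 ± 0.205 in GFP vector cells, against 3.47 ± 0.17 and 3.36 ± 0.28 in DMSO (SD, n = 3), and rose in GFP vector cells (0.63, adjusted p = 0.00205). In pre-miR-371 cells its log2 fold change was 0.29 (adjusted p = 0.118). The third probe set, 1555314_at, stayed between group means of 2.51 and 2.66 and passed in neither line (adjusted p 0.546 and 0.449). So the size of the WDR19 response rests on 220917_s_at.

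Genes of the same transport complex moved with WDR19. Of the 6 other subunits and adaptors listed, 5 were measured, and with erlotinib 5 were higher in pre-miR-371 cells and 4 in GFP vector cells (medians 0.90 and 1.04), against 24.1% and 25.6% of all genes by their highest probe set. The subunits IFT122 (1.15 and 1.15), IFT43 (0.94 and 1.14) and IFT140 (0.90 and 1.04) rose in both lines, pre-miR-371 cells given before GFP vector cells. The adaptor TULP3 rose in pre-miR-371 cells (0.63, adjusted p = 0.000283) and measured 0.22 in GFP vector cells (adjusted p = 0.117), and this difference did not pass (0.41, adjusted p = 0.260). Between the lines, 0 of the 5 passed in DMSO or in erlotinib. The list was chosen with results of these data known.

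GDE1 encodes a membrane glycerophosphodiester phosphodiesterase, which splits the head group from lipid breakdown products. On probe set 226214_at it had 10.51, 10.62 and 10.62 in pre-miR-371 cells in erlotinib and 10.95, 10.99 and 10.94 in GFP vector cells in erlotinib, against 9.76, 9.83 and 9.71 in pre-miR-371 cells in DMSO and 9.98, 9.91 and 9.87 in GFP vector cells in DMSO. Each of the 4 groups was separate from the others, with erlotinib above DMSO and pre-miR-371 below GFP vector cells in both treatments. The rise with erlotinib was 1.76-fold in pre-miR-371 cells (0.81, standard error 0.06, adjusted p = 2.93e-07) and 2.06-fold in GFP vector cells (1.04 with the same error, adjusted p = 2.18e-08).

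The line difference of GDE1 was seen on both of its probe sets in erlotinib. On 226214_at it was -0.38 (standard error 0.06, adjusted p = 0.00358), and on 202593_s_at -0.37 (standard error 0.06, adjusted p = 0.00296). The arrays of 202593_s_at read 10.46, 10.46 and 10.37 in pre-miR-371 cells in erlotinib and 10.82, 10.81 and 10.77 in GFP vector cells in erlotinib, against 9.89, 9.94 and 9.95 in pre-miR-371 cells in DMSO and 10.08, 10.07 and 10.02 in GFP vector cells in DMSO. Again no group overlapped another. In DMSO the differences of -0.15 and -0.13 did not pass (adjusted p = 0.199 and 0.239). That of 226214_at passed among probe sets with a mean of at least 6 (0.0484) and with trend and robust variance (0.034). Both calls in erlotinib were kept whichever array was left out (adjusted p up to 0.0181). On 202593_s_at the rise with erlotinib was 0.50 in pre-miR-371 cells and 0.74 in GFP vector cells (standard error 0.06 each, adjusted p = 1.39e-05 and 2.92e-07).

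Of the 6 other phosphodiesterases of this kind, 5 were measured, and 2 were higher with erlotinib in each line, against 24.1% of all genes in pre-miR-371 cells and 25.6% in GFP vector cells. GDPD1, a lysophospholipase D, averaged 7.13 ± 0.04 in pre-miR-371 cells and 7.54 ± 0.05 in GFP vector cells in erlotinib, against 4.07 ± 0.11 and 3.95 ± 0.10 in DMSO (SD, n = 3). Its rise of 3.06 in pre-miR-371 cells was smaller than the 3.60 in GFP vector cells, a difference that passed (-0.53, adjusted p = 0.0397). GDPD5 rose by 0.93 and 1.14. GDPD3 fell by 0.45 in pre-miR-371 cells and measured -0.14 in GFP vector cells (adjusted p = 0.176), without a difference that passed (-0.31, adjusted p = 0.238).

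TOMM20 is the receptor of the outer mitochondrial membrane that recognises the presequence of imported proteins. Its probe set 212773_s_at had 10.90, 10.88 and 10.79 in pre-miR-371 cells in erlotinib and 11.20, 11.20 and 11.16 in GFP vector cells in erlotinib, against 10.87, 10.94 and 10.93 in pre-miR-371 cells in DMSO and 11.06, 10.95 and 10.86 in GFP vector cells in DMSO. Only the GFP vector arrays in erlotinib stood above the rest. Pre-miR-371 cells were thus lower in erlotinib (-0.33, standard error 0.07, adjusted p = 0.0103, kept whichever array was left out), and in DMSO the log2 fold change was -0.04 (adjusted p = 0.756).

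On the second probe set, 200662_s_at, the GFP vector cells in erlotinib were again highest, but the pre-miR-371 cells in erlotinib came next: 11.63 ± 0.05 in pre-miR-371 cells and 11.78 ± 0.03 in GFP vector cells in erlotinib, against 11.56 ± 0.02 and 11.58 ± 0.03 in DMSO (SD, n = 3). In erlotinib the pre-miR-371 arrays lay below all GFP vector arrays, but the difference of -0.15 did not pass over all probe sets (adjusted p = 0.119). It passed among probe sets with a mean of at least 6 (adjusted p = 0.0187). In GFP vector cells erlotinib raised both probe sets, by 0.20 on 200662_s_at (adjusted p = 0.0142) and 0.23 on 212773_s_at (adjusted p = 0.0148). Those 2 calls were lost with arrays centred on their medians (0.0955 and 0.0880), the first without GFP vector DMSO replicate 2 (0.0567) and the second without GFP vector DMSO replicate 3 (0.0624). In pre-miR-371 cells the log2 fold changes were 0.06 and -0.06 (adjusted p = 0.453 and 0.562).

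The other measured subunits of the import complex fell with the drug. Of 6 listed, 4 were measured, and all 4 were lower with erlotinib in both lines (medians -0.76 in pre-miR-371 cells and -0.91 in GFP vector cells), against 21.2% and 22.7% of all genes. The log2 fold changes were -1.58 and -1.68 for the channel TOMM40, -0.92 and -1.18 for the small subunit TOMM5, -0.60 and -0.64 for the receptor TOMM22 and -0.24 and -0.23 for the receptor TOMM70, pre-miR-371 cells given before GFP vector cells. Between the lines 0 of the 4 passed in either treatment. The TOM list, too, was chosen with results of these data known.

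MIGA2, mitoguardin 2, promotes fusion of mitochondria from their outer membrane. It was measured by 226356_at, which had 7.38, 7.62 and 7.49 in pre-miR-371 cells in erlotinib and 7.75, 7.69 and 7.59 in GFP vector cells in erlotinib, against 7.53, 7.48 and 7.62 in pre-miR-371 cells in DMSO and 7.81, 7.64 and 7.68 in GFP vector cells in DMSO. The lines overlapped in erlotinib and were narrowly apart in DMSO. Neither difference passed (-0.18, adjusted p = 0.177 in erlotinib and -0.16, adjusted p = 0.279 in DMSO), nor did their average (-0.17, 95% interval -0.30 to -0.05, adjusted p = 0.0599). The averaged call was made with pre-miR-371 erlotinib replicate 2 left out (adjusted p = 0.0419) and among probe sets with a mean of at least 6 (0.0144). It was also made with 1 probe set per gene (0.0420) and with trend and robust variance (0.0218). The log2 fold changes with erlotinib were -0.05 (95% interval -0.23 to 0.13) in pre-miR-371 cells and -0.03 (-0.21 to 0.14) in GFP vector cells.

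Of 5 other genes of mitochondrial fusion, MFN2, an outer membrane GTPase, fell with erlotinib (-0.67 in pre-miR-371 cells and -0.74 in GFP vector cells), and OPA1, the GTPase of the inner membrane, fell by 0.26 in GFP vector cells (adjusted p = 0.00523). With erlotinib 1 of the 5 was higher and 1 lower in pre-miR-371 cells, against 24.1% and 21.2% of all genes. In GFP vector cells 0 were higher and 2 lower, against 25.6% and 22.7%. For the difference of the responses 0 of the 5 passed. MIGA1, the relative of MIGA2, rose with erlotinib in pre-miR-371 cells (0.45, adjusted p = 0.00514). It was also higher in pre-miR-371 than in GFP vector cells in erlotinib (0.46, adjusted p = 0.0209), while MFN2 was lower (-0.23, adjusted p = 0.0378). MIGA1 and MIGA2 therefore lay on opposite sides of 0 in that comparison, MIGA2 without passing the test.

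PIGK is the catalytic subunit of the GPI transamidase, which joins the glycolipid anchor to proteins in the endoplasmic reticulum. Its 3 probe sets did not give the same answer. On 227639_at the arrays read 7.43, 7.52 and 7.51 in pre-miR-371 cells in erlotinib and 8.08, 7.91 and 7.82 in GFP vector cells in erlotinib, against 7.75, 7.87 and 7.92 in pre-miR-371 cells in DMSO and 8.30, 8.09 and 8.19 in GFP vector cells in DMSO. Pre-miR-371 arrays lay below GFP vector arrays in both treatments. The difference was -0.45 in erlotinib (standard error 0.08, adjusted p = 0.00598, kept whichever array was left out) and -0.34 in DMSO (standard error 0.08, adjusted p = 0.0450). Leaving out GFP vector erlotinib replicate 1 or 3 kept the call in DMSO, and leaving out each of the other 10 arrays ended it (adjusted p 0.0546 to 0.152).

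Probe set 209707_at, the brighter one, had 8.58, 8.62 and 8.52 in pre-miR-371 cells in erlotinib and 8.60, 8.54 and 8.57 in GFP vector cells in erlotinib, against 8.54, 8.66 and 8.61 in pre-miR-371 cells in DMSO and 8.77, 8.52 and 8.52 in GFP vector cells in DMSO. All groups overlapped. The line difference was -0.00 in erlotinib (95% interval -0.17 to 0.17) and 0.00 in DMSO (-0.17 to 0.17), intervals that do not reach the -0.45 of 227639_at. The dim 1555394_at had group means of 2.31 to 2.40 and passed in no comparison. Which transcripts the PIGK probe sets read was not analysed here.

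With erlotinib, 227639_at fell by 0.36 in pre-miR-371 cells (adjusted p = 0.00327) and by 0.25 in GFP vector cells (adjusted p = 0.0242). Leaving out DMSO replicate 1 or 3 or erlotinib replicate 2 or 3 of the GFP vector cells ended the call there (adjusted p 0.0510 to 0.106). On 209707_at the log2 fold changes with the drug were -0.04 and -0.03. Of the 4 other subunits of the transamidase, all measured, 3 were higher with erlotinib in each line, against 24.1% of all genes in pre-miR-371 cells and 25.6% in GFP vector cells: PIGT by 0.42 and 0.62, GPAA1 by 0.29 and 0.37 and PIGS by 0.30 and 0.30. PIGT (-0.33, adjusted p = 0.00568) and GPAA1 (-0.29, adjusted p = 0.0108) were lower in pre-miR-371 than in GFP vector cells in erlotinib.

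COLGALT1 adds galactose to hydroxylysine residues of collagen. Probe set 218473_s_at had 8.38, 8.23 and 8.14 in pre-miR-371 cells in erlotinib and 8.43, 8.42 and 8.30 in GFP vector cells in erlotinib, against 9.07, 9.07 and 8.99 in pre-miR-371 cells in DMSO and 9.29, 9.24 and 9.19 in GFP vector cells in DMSO. Every array in erlotinib was below every array in DMSO. COLGALT1 fell with erlotinib 1.73-fold in pre-miR-371 cells (-0.79, standard error 0.07, adjusted p = 1.72e-06) and 1.81-fold in GFP vector cells (-0.86 with the same error, adjusted p = 6.21e-07). On 222644_s_at it fell by 0.65 (adjusted p = 0.000752) and by 0.95 (adjusted p = 2.43e-05), with group means of 5.79 in both lines in erlotinib, against 6.44 in pre-miR-371 cells and 6.74 in GFP vector cells in DMSO.

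Between the lines COLGALT1 passed in neither treatment in the main fit. In DMSO 218473_s_at passed among probe sets with a mean of at least 6 (adjusted p = 0.0461) and with trend and robust variance (0.048). There 222644_s_at passed with array weights (0.0484). In DMSO the arrays were apart on both probe sets, with differences of -0.20 on 218473_s_at (adjusted p = 0.167) and -0.31 on 222644_s_at (adjusted p = 0.184). In erlotinib they overlapped on both (-0.13, adjusted p = 0.305 and -0.01, adjusted p = 0.985). Of the lysyl hydroxylases, which prepare the residues for COLGALT1, 3 were measured. With erlotinib 1 was lower and 0 higher in pre-miR-371 cells, against 21.2% and 24.1% of all genes. In GFP vector cells 2 were lower and 1 higher, against 22.7% and 25.6%. PLOD3 fell with erlotinib (-0.73 in pre-miR-371 cells and -0.60 in GFP vector cells). It was also lower in pre-miR-371 than in GFP vector cells in erlotinib (-0.36, adjusted p = 0.00387). PLOD1 was lower as well (-0.35, adjusted p = 0.0124) and PLOD2 was higher (0.36, adjusted p = 0.00690).

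SLC37A2 is a sugar phosphate transporter of the endoplasmic reticulum. Its only probe set, 238638_at, was dim, with 4.64, 4.21 and 4.60 in pre-miR-371 cells in erlotinib and 5.50, 5.35 and 4.82 in GFP vector cells in erlotinib, against 5.38, 5.36 and 5.24 in pre-miR-371 cells in DMSO and 5.55, 5.73 and 5.35 in GFP vector cells in DMSO. The pre-miR-371 arrays in erlotinib lay below the other 9. Pre-miR-371 cells were lower in erlotinib by 1.67-fold (-0.74, standard error 0.17, adjusted p = 0.0154). That call was lost without GFP vector erlotinib replicate 1 or 2 or pre-miR-371 erlotinib replicate 2 (0.0613, 0.0577 and 0.0601). With erlotinib it fell in pre-miR-371 cells (-0.84, adjusted p = 0.000991), and in GFP vector cells the log2 fold change was -0.32 (adjusted p = 0.149), which ranged over the arrays left out from -0.46 (adjusted p = 0.0496, without GFP vector erlotinib replicate 1) to -0.12 (adjusted p = 0.565, without replicate 3 of that group).

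The 3 relatives of SLC37A2 were all measured. In erlotinib SLC37A1 (-0.42, adjusted p = 0.00439) and SLC37A3 (-0.31, adjusted p = 0.0350) were lower in pre-miR-371 than in GFP vector cells, and SLC37A4, the glucose 6-phosphate transporter, had -0.06 (adjusted p = 0.644). In DMSO 0 of the 3 passed. With erlotinib SLC37A4 rose by 0.34 in pre-miR-371 cells and 0.41 in GFP vector cells, and SLC37A1 rose in GFP vector cells (0.39, adjusted p = 0.000570). Of the 3, 1 was higher and 1 lower with erlotinib in pre-miR-371 cells, against 24.1% and 21.2% of all genes. In GFP vector cells 2 were higher and 0 lower, against 25.6% and 22.7%. For the difference of the responses 0 of the 3 passed.

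GABBR2 is the subunit of the GABA-B receptor that couples to G proteins, while GABBR1 binds the ligand. It was read by 4 probe sets, 2 of them with a mean under 6, and all 4 fell with erlotinib in both lines and were lower in pre-miR-371 cells in erlotinib. The brightest, 209990_s_at, had 7.92, 7.91 and 7.93 in pre-miR-371 cells in erlotinib and 8.24, 8.29 and 8.24 in GFP vector cells in erlotinib, against 8.47, 8.49 and 8.43 in pre-miR-371 cells in DMSO and 8.56, 8.56 and 8.62 in GFP vector cells in DMSO. The 4 groups formed 4 separate steps in that order. The step between the lines was -0.34 in erlotinib (standard error 0.06, adjusted p = 0.00359, kept whichever array was left out) and -0.12 in DMSO (adjusted p = 0.268). With the drug it fell by 0.54 in pre-miR-371 cells (adjusted p = 4.55e-06) and by 0.32 in GFP vector cells (adjusted p = 0.000389).

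The other 3 probe sets of GABBR2 gave line differences in erlotinib of -0.29 on 211679_x_at (adjusted p = 0.0466), -0.37 on 217077_s_at (adjusted p = 0.0345) and -0.47 on 209991_x_at (adjusted p = 0.0284). These are less firm: the call of 211679_x_at survived leaving out GFP vector DMSO replicate 1 or 3, and each of the other 10 arrays left out ended it (adjusted p 0.0537 to 0.159). Those of 217077_s_at and 209991_x_at were lost without any 1 of the GFP vector erlotinib arrays or without pre-miR-371 erlotinib replicate 2 or 3 (0.0636 to 0.126 and 0.0522 to 0.115). In DMSO 217077_s_at passed as well, with 5.29, 5.32 and 5.36 in pre-miR-371 cells, against 5.91, 5.88 and 5.54 in GFP vector cells (-0.45, adjusted p = 0.0293). It was lost there without any 1 pre-miR-371 DMSO array or without GFP vector DMSO replicate 1 or 2 (0.0869 to 0.108).

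With erlotinib the log2 fold changes of these 3 probe sets were -0.36, -0.35 and -0.44 in pre-miR-371 cells and -0.25, -0.44 and -0.36 in GFP vector cells, in the order just given, and all passed. In pre-miR-371 cells leaving out erlotinib replicate 3 ended the calls of 217077_s_at and 209991_x_at (0.0515 and 0.0514). In GFP vector cells that of 211679_x_at was ended by leaving out DMSO replicate 1 or 2 or erlotinib replicate 2 or 3 of these cells (0.0826 to 0.0933), and that of 209991_x_at by DMSO replicate 1 or erlotinib replicate 1 or 3 (0.0605 to 0.111). The endings _s_at and _x_at mark probe sets whose probes can match more than 1 transcript. GABBR1 moved the other way with the drug, to 5.55 ± 0.07 in pre-miR-371 cells and 5.52 ± 0.20 in GFP vector cells in erlotinib, against 4.84 ± 0.13 and 4.98 ± 0.35 in DMSO (SD, n = 3; log2 fold changes 0.71, adjusted p = 0.00189, and 0.54, adjusted p = 0.0109), at values under 6.

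ZNF213 encodes a zinc finger protein and had the lowest p of the members between the lines. Its probe set 227207_x_at had 6.81, 6.77 and 6.81 in pre-miR-371 cells in erlotinib and 7.56, 7.61 and 7.57 in GFP vector cells in erlotinib, against 6.87, 6.87 and 6.65 in pre-miR-371 cells in DMSO and 7.24, 7.25 and 7.16 in GFP vector cells in DMSO. The 6 pre-miR-371 arrays lay below the 6 GFP vector arrays. The difference was 1.72-fold in erlotinib (-0.78, 95% interval -0.94 to -0.62, adjusted p = 0.000147) and 1.34-fold in DMSO (-0.42, 95% interval -0.58 to -0.27, adjusted p = 0.00997). Both were kept whichever array was left out (adjusted p up to 0.0423 in DMSO), but with only the DMSO groups in the fit the second was lost (0.0712).

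With erlotinib ZNF213 rose in GFP vector cells (0.36, 95% interval 0.20 to 0.51, adjusted p = 0.00100) and did not overlap with DMSO there. In pre-miR-371 cells the groups overlapped, with a log2 fold change of 0.00 (95% interval -0.16 to 0.16). The probe set carries the ending _x_at, so its probes can bind other sequences too.

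ZNF576, another zinc finger gene, passed the test with the drug and not between the lines in the main fit. Its probe set 219088_s_at had 7.23, 7.17 and 6.998 in pre-miR-371 cells in erlotinib and 7.19, 7.35 and 7.26 in GFP vector cells in erlotinib, against 7.63, 7.58 and 7.53 in pre-miR-371 cells in DMSO and 7.78, 7.74 and 7.70 in GFP vector cells in DMSO. The lines overlapped in erlotinib and were apart in DMSO. It fell with erlotinib by 0.45 in pre-miR-371 cells (adjusted p = 0.000283) and fell by 0.48 in GFP vector cells (adjusted p = 0.000142), while the line differences of -0.13 in erlotinib and -0.16 in DMSO did not pass (adjusted p = 0.307 and 0.258). Averaged over both treatments, the line difference of 219088_s_at was -0.14 (adjusted p = 0.0872), which passed among probe sets with a mean of at least 6 (0.0220). On 219089_s_at the log2 fold change with erlotinib was -0.20 in pre-miR-371 cells (adjusted p = 0.107) and -0.23 in GFP vector cells (adjusted p = 0.0611). In GFP vector cells it passed without GFP vector DMSO replicate 2 or GFP vector erlotinib replicate 3 (0.0467 and 0.0478). Among probe sets with a mean of at least 6 it passed in pre-miR-371 cells (0.0408) and in GFP vector cells (0.0209).

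**Figure D3:**
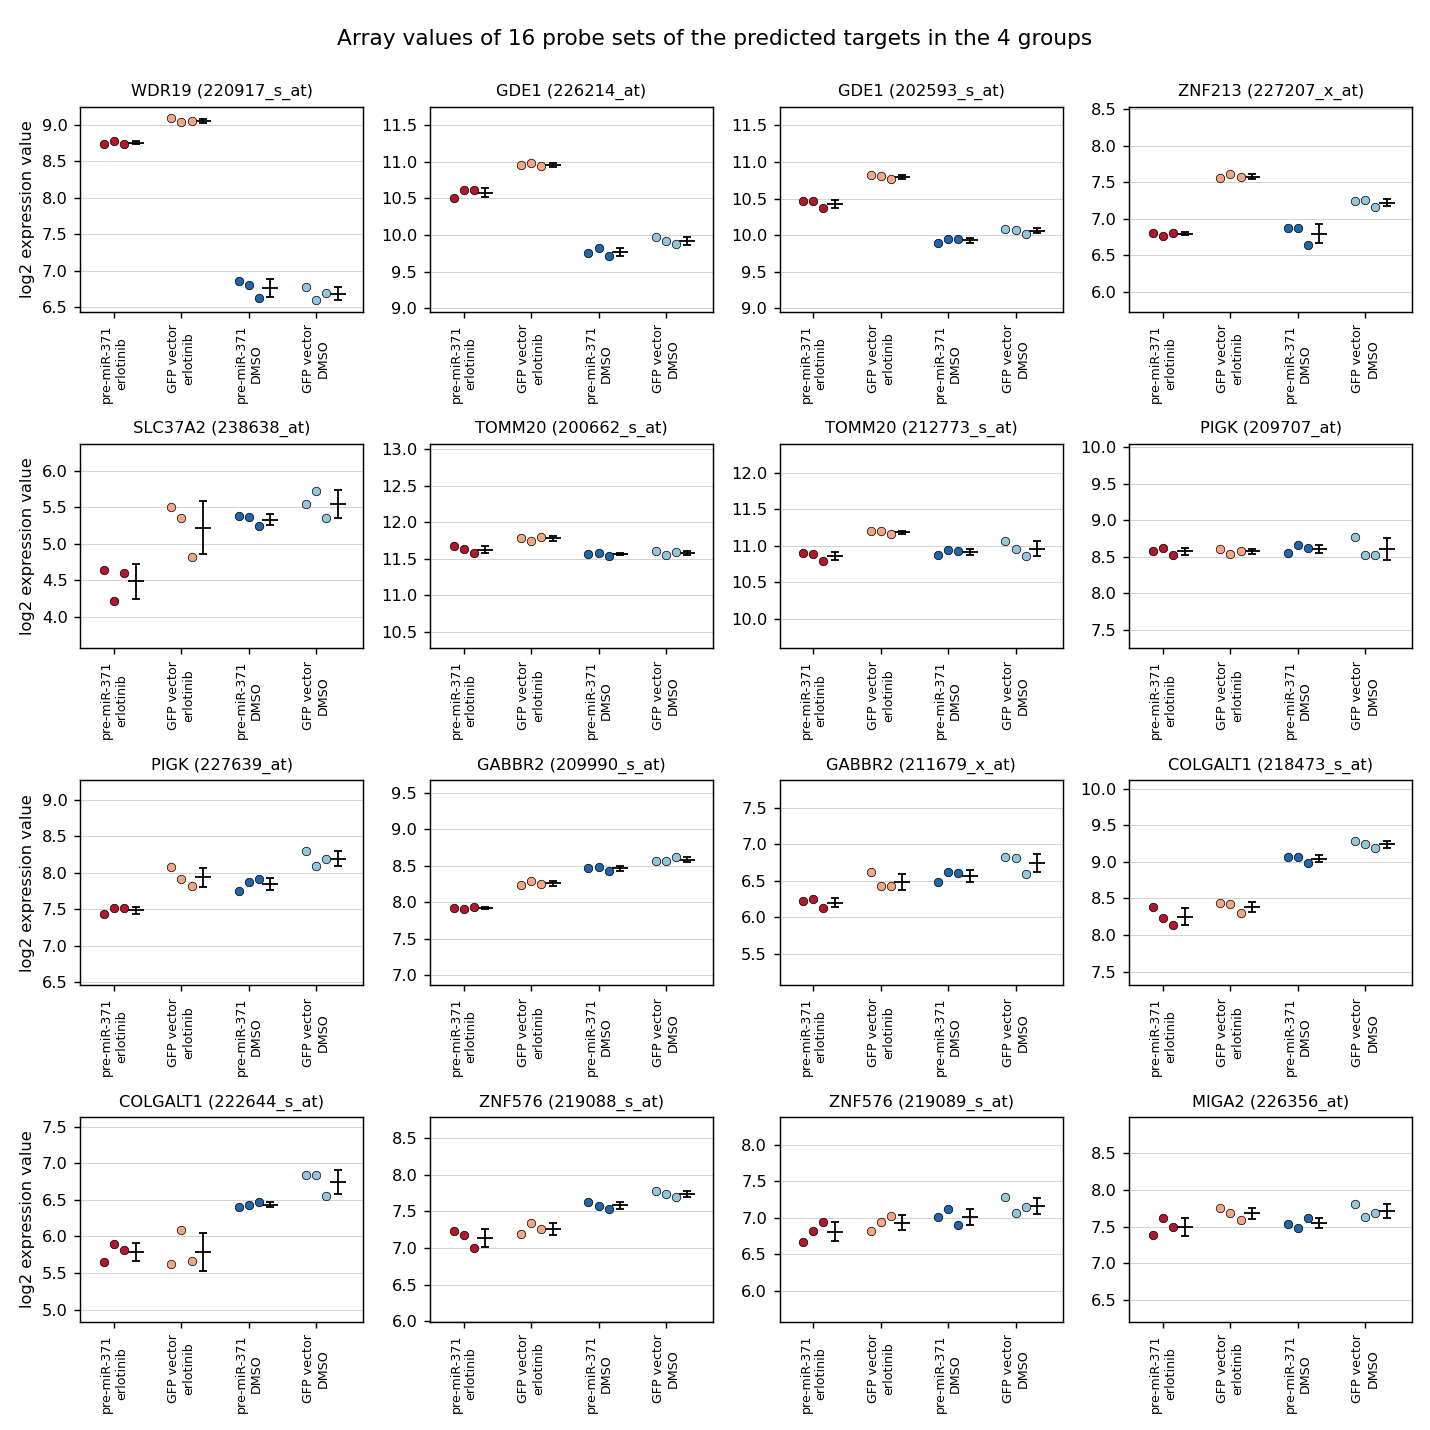
Log2 expression values (y axis, every panel spanning the same number of log2 units) of the 15 probe sets with a mean of at least 6 and of SLC37A2, in the 4 groups (x axis). Each point is 1 of 3 arrays and the black mark beside them is the mean with its SD. WDR19 and GDE1 are high in erlotinib, COLGALT1 is low, and ZNF213 separates the lines in both treatments.

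Whether the response to erlotinib differed between the lines was tested directly as the response in pre-miR-371 cells minus that in GFP vector cells. None of the 21 probe sets passed in limma (0 members, against 0.935% of all probe sets, 0.701% above and 0.234% below 0), with adjusted p from 0.123 upward. At an unadjusted p under 0.05 there were 7, all below 0: WDR19 220917_s_at (-0.38, 95% interval -0.61 to -0.16), ZNF213 (-0.36, -0.58 to -0.14), TOMM20 212773_s_at (-0.28, -0.49 to -0.08), GDE1 202593_s_at (-0.24, -0.42 to -0.05) and 226214_at (-0.22, -0.42 to -0.03), GABBR2 209990_s_at (-0.22, -0.40 to -0.05) and SLC37A2 (-0.53, -1.03 to -0.02). For this unadjusted limit, too, the share of all probe sets was not computed, so the 7 are listed and not read as a result about the members. The larger number of members lower in erlotinib than in DMSO is thus not shown to be a different effect of the precursor in the 2 treatments. The answer depends on the settings. Among the 15512 probe sets with a mean of at least 6, 5 of the 15 members passed, all below 0. Over that set 2.24% passed below and 5.96% above 0. The members were WDR19 (adjusted p = 0.0205), ZNF213 (0.0228), GABBR2 209990_s_at (0.0434), GDE1 202593_s_at (0.0442) and TOMM20 212773_s_at (0.0448). With trend and robust variance over all probe sets, WDR19 220917_s_at (0.0273), GDE1 202593_s_at (0.0276) and TOMM20 212773_s_at (0.00735) passed. WDR19 220917_s_at also passed with array weights (0.04) and with quantile normalization repeated (0.0403).

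Averaged over both treatments, 10 of the 21 probe sets from 6 genes were lower in pre-miR-371 cells and 0 higher, against 10.1% and 5.30% of all. Of these 1, ZNF213, passed a fold of 1.5, against 0.204% of all. Among probe sets with a mean of at least 6, 11 of the 15 members were lower and 0 higher, against 32.1% and 12.6%. The 10 were ZNF213 (-0.60, adjusted p = 3.76e-05), SLC37A2 (-0.47, adjusted p = 0.0180), PIGK 227639_at (-0.40, adjusted p = 0.00124), both of GDE1 (-0.27 and -0.25), all 4 of GABBR2 (-0.23 to -0.43) and TOMM20 212773_s_at (-0.19, adjusted p = 0.0218). The average of TOMM20 was lost without pre-miR-371 DMSO replicate 1 or pre-miR-371 erlotinib replicate 3 (0.0507 and 0.0537), and that of GABBR2 211679_x_at without GFP vector DMSO replicate 2 or pre-miR-371 erlotinib replicate 3 (0.0503 and 0.0534). COLGALT1 218473_s_at had -0.16 (adjusted p = 0.0567) and passed without GFP vector erlotinib replicate 3 or pre-miR-371 erlotinib replicate 1 (0.0496 and 0.0260). WDR19 220917_s_at, which differed between the lines in erlotinib, did not pass on average (-0.11, adjusted p = 0.167).

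**Figure D4:**
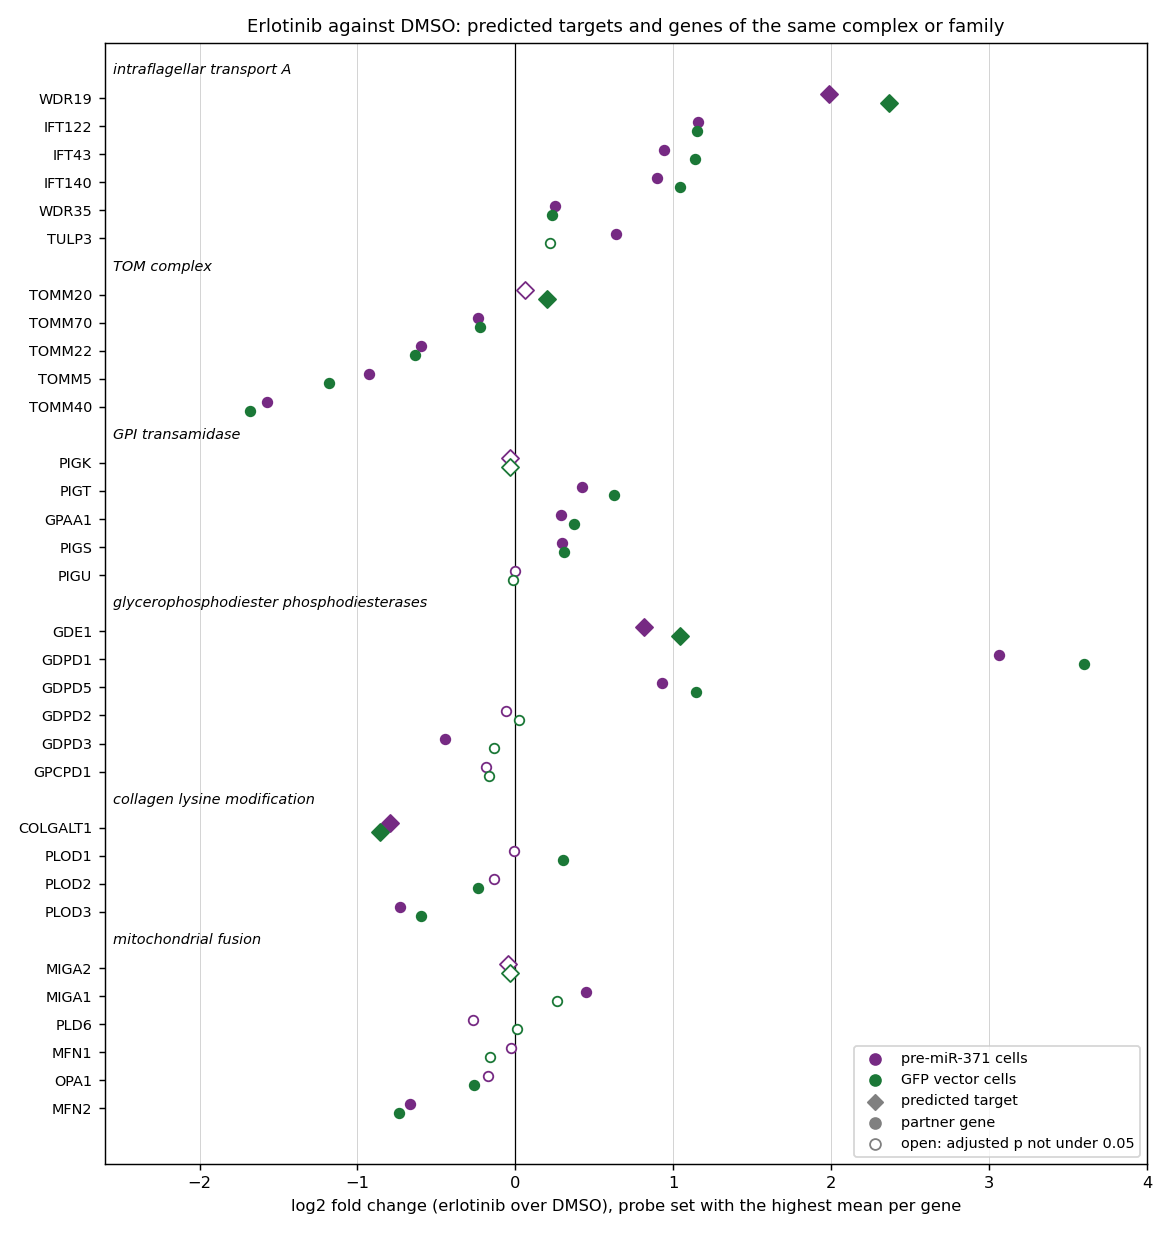
Log2 fold change of erlotinib over DMSO (x axis) for 6 predicted targets (diamonds) and the genes of the same complex or family (circles), in pre-miR-371 cells (purple) and GFP vector cells (green), by the probe set of each gene with the highest mean. Filled symbols had an adjusted p under 0.05 in limma. WDR19 lies on the side of its complex, at 1.98 and 2.37, while the 4 other TOM subunits measured lie left of 0 and TOMM20 lies at 0.06 and 0.20.

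Other genes on the target sheet give the setting for these counts. Of 27 such genes 24 were measured, and by the highest probe set of each gene 4 were lower and 1 higher in pre-miR-371 cells in erlotinib (5 lower and 0 higher of the 10 members counted in the same way, against 7.21% and 5.18% of all genes). In DMSO 1 of the 24 was lower and 0 higher, and 1 of the 10 members was lower, against 2.54% and 1.09% of all genes. HMOX1, heme oxygenase 1, was the gene lower in both (-0.74, adjusted p = 0.000551 in erlotinib and -0.43, adjusted p = 0.0243 in DMSO). The medians in erlotinib were -0.24 for the members and -0.05 for the 24 other genes, against -0.01 for all genes.

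For the members whose group means spanned at least 1 log2 unit, the genes with the most similar pattern over the 4 group means were looked up, as the root mean square difference between the means after centring. For WDR19, which spanned 2.37, they were SEMA5A (0.0267), LIPT2-AS1 (0.0366) and GALM (0.0392). For GDE1, which spanned 1.19, they were VPS28 (0.0124), NIPAL2 (0.0129) and TMEM42 (0.0153), and for SLC37A2, which spanned 1.06, CST4 (0.0382), FUT3 (0.0649) and CCDC124 (0.101). SEMA5A, for example, averaged 8.06 in pre-miR-371 cells and 8.36 in GFP vector cells in erlotinib, against 6.02 and 5.95 in DMSO. With 4 points per gene such likeness is a description of these arrays.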

How the data were processed

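RNA of the 12 PC9 samples was measured on Affymetrix Hgu133plus2 arrays. The authors deposited 1 normalized log2 value for each probe set on each array. Quantile normalization is named in the study's methods, and RMA with affy in the submitters' processing notes, for which the sources used here give no version. Background correction, normalization and summary over probes are therefore in the values, and were not repeated. Compressed low signals make fold changes of dim probe sets smaller and less certain, and the number of arrays limits the precision.

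Probe sets were named through the platform annotation, updated through gene identifiers (19735 of 19775 genes). Of 54675 probe sets, 41097 had 1 symbol, 1801 several and 11777 none listed. Control probe sets (62) were left out, and no member shared a probe set with another symbol (0). No 2 arrays were identical (0 pairs), and the files used here give no scan date or batch. Samples were grouped by their titles.

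A linear model with 1 mean per group was fitted to all 41091 probe sets and all 12 arrays, with no filter on low values (R 4.3.3, limma 3.58.1, lmFit followed by eBayes). P-values were two-sided and adjusted by Benjamini-Hochberg over all probe sets, and called under 0.05, also counted with a fold over 1.5. An exact permutation test of 3 against 3 arrays cannot go below 0.1 (two-sided), which arrays without overlap reach. Genes of a list were read from the probe set with the highest mean, and up to 4 of a list with the smallest p were named. The lists of partner genes were chosen with earlier results of these data known, and the members were taken from the study's target sheet. The main fit did not pair arrays by replicate number, as the labels name nothing shared beyond it. Correlations of deviations between arrays of the same number were -0.04 to 0.18. Of the 12 arrays, 9 correlated best with their own number, so an effect shared by number may be present.

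The fit was tested on simulated data made like the erlotinib arrays of both lines (41091 probe sets, 200 changed). In the simulated arrays the fit recovered 8%, 82%, 90% and 100% at log2 fold changes of 0.3, 0.6, 1 and 2, with 5 false calls. The real comparison in erlotinib called far more probe sets (2562 lower and 1776 higher), which makes the limit on p less strict. These shares therefore do not carry over to it. Alternatives were a minimum mean of 6, 1 probe set or the mean of probe sets per gene, array weights, a variance with trend and robust fit, a second quantile normalization, median centring of arrays, a block for the replicate number, a fit on the groups compared alone, the fold limit, unadjusted p and leaving out each array. Python 3.11.15 with matplotlib 3.10.9 drew the figures.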

Additional observations from a re-analysis of the deposited data

How the results depend on the processing

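No direction of a called member reversed under any alternative run (0 of the values recomputed), and 252 of the 272 recomputed counts of member genes stayed within 1.5 times. With the fold limit of 1.5, genes with a lower probe set fell to 2 in pre-miR-371 cells and 1 in GFP vector cells for erlotinib against DMSO (5 and 4 without it), and those higher in GFP vector cells to 2 (4 without it). For pre-miR-371 against GFP vector cells the fold limit left 2 in erlotinib (7 without it), 0 in DMSO (3) and 1 on average (6). In DMSO the 3 genes became 1 with 1 probe set per gene, 0 with only the groups compared, 5 with trend and robust variance and 5 at an unadjusted p. For the difference of the responses the 0 genes became 5 with a mean of at least 6, 1 with quantile normalization repeated, 3 with trend and robust variance, 1 with array weights and 6 at an unadjusted p. The cause was not tested, and for the unadjusted p the shares over all genes were not computed. Leaving out 1 array gave 1 to 3 genes lower in DMSO, 5 to 7 in erlotinib, 5 to 7 on average and 0 for the difference, and for erlotinib against DMSO 5 lower and 2 higher in pre-miR-371 cells and 3 to 5 lower and 4 higher in GFP vector cells. Fits on only the groups compared also ended the calls of ZNF213, GABBR2 217077_s_at and PIGK 227639_at in DMSO (adjusted p = 0.0712, 0.0956 and 0.102), of SLC37A2 and GABBR2 211679_x_at in erlotinib (0.0519 and 0.0732) and for erlotinib in GFP vector cells of both TOMM20 probe sets (0.0565 and 0.0538), PIGK 227639_at (0.0668) and GABBR2 211679_x_at (0.0680). Array weights ended that of GABBR2 209991_x_at with erlotinib in GFP vector cells (0.0562). Median centring ended those of GABBR2 211679_x_at and 217077_s_at in erlotinib (0.0748 and 0.0512), and a second quantile normalization that of PIGK 227639_at in DMSO (0.110).

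By their labels the arrays share only a number, and 9 of the 12 correlated best with their own number. The replicate block left the counts of member genes within 1.5 times. It ended the call of PIGK 227639_at in DMSO (adjusted p = 0.0598) and made that of COLGALT1 218473_s_at on average (0.0290). A member that did not pass is not shown to be unchanged, and 6 of the 21 probe sets had a mean under 6.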
